A study of Setaria viridis with 32 samples.

Results

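The A.10 (A10 in the labels) and ME034V ecotypes of *Setaria viridis* were compared in their seed heads at anthesis, the opening of the florets, from the 4 A.10 and 4 ME034V libraries that the labels place at this stage, 8 of the 32 libraries of the series. *S. viridis* (green foxtail) is a small C4 grass used as a genetic model for millets. Plants of both ecotypes were grown in a chamber of the same model under the same light and temperature, with no treatment or transgene named, and each library was made from poly(A) RNA of whole seed heads pooled from 4 plants. The other 24 libraries, from heads at 50% emergence and at 8 and 16 days after anthesis (DAA), entered only to place the anthesis heads in development and to ask whether a difference was also seen at other stages. Every value is an average over all tissues of the head, so that fewer cells of a type and less RNA per cell cannot be told apart. Lists of marker genes for the tissues of the head were not used, since the reference gene table names 0 of the locus identifiers in the files, and no DNA or protein sequence could be matched to them.

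At anthesis the head is still a flowering organ, and sucrose from the phloem is used for growth of the florets rather than for grain filling. Sucrose and hexoses leave cells through SWEETs (Sugars Will Eventually be Exported Transporters), which let sugars run down their gradient, and they are taken up by proton-coupled sucrose transporters (SUTs) and hexose transporters (HXTs). Invertases and sucrose synthase split sucrose, UDP-glucose and ADP-glucose pyrophosphorylases supply the glucosyl donors for sucrose and starch, and amylases and glucosidases release sugars from starch and other glucosides. Aquaporins carry water and small solutes across the plasma membrane (PIPs and many NIPs) and the vacuolar membrane (TIPs). The comparison followed 177 genes of these families, the union of the genes that the study lists for the 2 ecotypes.

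Total counts per library lay between 4808433 and 9764459 in A.10, where replicate 4 held the most. In ME034V they lay between 6036241 and 7866466 in replicates 1 to 3, and replicate 4 held 21175874. Levels are given in CPM, the counts of a locus per 1000000 counts of the scaled library. Across loci, log2 CPM of replicates of an ecotype had a Pearson r between 0.958 and 0.986, and libraries of different ecotypes one between 0.897 and 0.919. A first principal component with 68.0% of the variance separated the ecotypes. On the second, with 10.6%, ME034V replicate 4 lay at -53.5 and ME034V replicate 1 at 41.3. A.10 replicate 4 lay at -18.3 and the other libraries between -2.14 and 10.5. The locus *Sevir.9G058080* held between 2.04% and 3.07% of the counts of A.10 replicates 1 to 3 and 0.837% of those of A.10 replicate 4. It held between 1.32% and 2.02% of those of ME034V replicates 1 to 3, but 0.0159% of those of ME034V replicate 4. Counts of calls are therefore also given without that library.

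Heads labelled anthesis were placed between the stage before and the stage after by genes chosen without the anthesis libraries, and the test did not separate the ecotypes. On a scale where 0 is the mean of the emergence libraries and 1 the mean of the 8 DAA libraries, 1095 genes that rise between these stages placed the A.10 libraries at 0.356, 0.385, 0.427 and 0.382 (mean 0.388 ± 0.0294, SD, n = 4) and the ME034V libraries at 0.366, 0.444, 0.420 and 0.352 (mean 0.395 ± 0.0436, SD, n = 4). The means differed by 0.00794 (exact two-sided permutation test, p = 0.83). With 929 genes that fall, the A.10 mean was 0.199 ± 0.0185 and the ME034V mean 0.185 ± 0.0159 (SD, n = 4 each; exact two-sided permutation test, p = 0.229). The smallest p this design allows is 0.0286. With the end points of each library's own ecotype, an alternative chosen after the data were seen, the rising genes placed A.10 at 0.435 and ME034V at 0.358, the other way round (exact permutation test, p = 0.0571). Of the rising and falling genes together, 22.6% of the 1677 that were tested between the ecotypes were called by the rule given next, beside 15.6% of the other loci.

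Of 38334 loci, 22822 had a CPM above 1 in at least 3 of the 8 libraries and were tested with edgeR. A locus is said to be higher or lower in ME034V where its p, after Benjamini-Hochberg adjustment over the whole set, was under 0.05. By this rule 1783 loci were higher in ME034V and 1903 lower, 16.2% of those tested (7.81% and 8.34%). Without ME034V replicate 4 there were 1749 and 1780. The median log2 fold change of all loci tested, always ME034V minus A.10, was 0.00077. Differences of at least 1 on the log2 scale were held by 895 of the higher and 856 of the lower loci, and differences of at least 5 by 131 higher and 232 lower loci. The libraries of the ecotypes did not overlap at 20.9% of the loci tested, called or not, 9.98% with ME034V higher and 11% with ME034V lower.

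**Figure D1:**
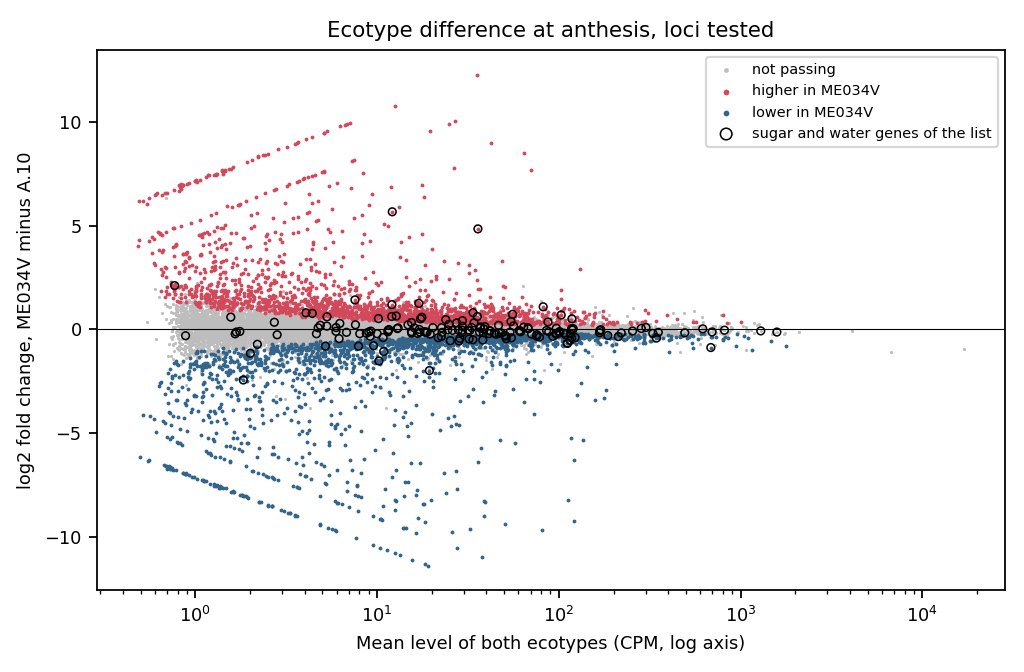
Log2 fold change (ME034V minus A.10) against the mean level of both ecotypes in CPM on a log axis, 1 point for each of the 22822 loci tested; red and blue points passed the test and open circles are the 165 tested genes of the sugar and water list. Most genes of the list lie near 0, and 2 of them lie above a log2 fold change of 4.

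Most genes of sugar and water transport and sugar metabolism did not pass at anthesis. Of the 177 genes, 165 could be tested, 14 were higher in ME034V, 21 were lower and 130 did not pass, so that 21.2% were called beside 16.2% of all loci. Their median log2 fold change was -0.10. The libraries of the ecotypes did not overlap for 38 of them, 23.0% beside 20.9% of all loci. There were 10 higher and 12 lower genes without A.10 replicate 3, and 17 and 18 without ME034V replicate 4. Of the 12 genes that were not tested, *SvSWEET12* had 0 counts in all 8 libraries, which allows up to 0.109 CPM in A.10 and 0.0701 CPM in ME034V by counting error.

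**Figure D2:**
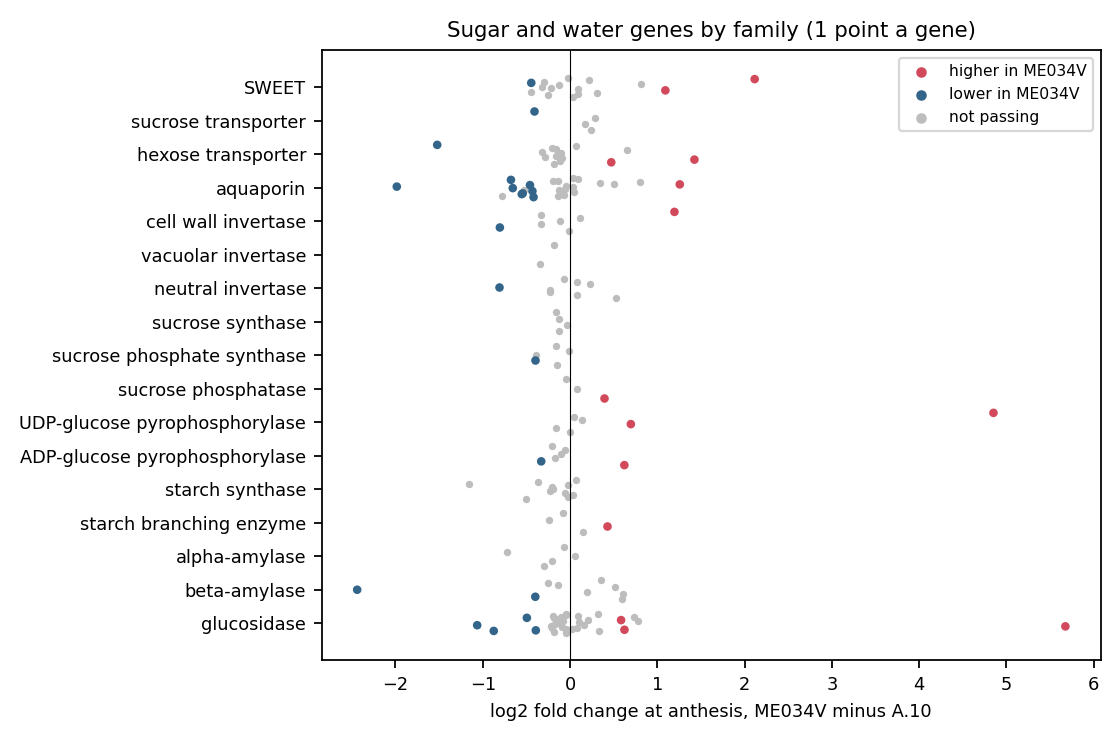
Log2 fold change (ME034V minus A.10) of the 165 tested genes by family, 1 point a gene; red genes were higher and blue genes lower in ME034V, and grey genes did not pass the test. The aquaporins hold 8 of the 21 lower genes, and no starch synthase, sucrose synthase, alpha-amylase or vacuolar invertase passed.

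Among the 16 SWEETs tested, *SvSWEET5* and *SvSWEET14a* were higher in ME034V, *SvSWEET2b* was lower, and 13 did not pass, with log2 fold changes between -0.44 and 0.81. That is 18.8% called beside 16.2% of all loci, with *SvSWEET14a* tested only through its level in ME034V. *SvSWEET5* (*Sevir.3G127400*, chromosome 3 from 8464607 to 8466183 in the v2.1 annotation) belongs to clade II, whose members mostly carry hexoses. Its level was 45.9, 56.7, 47.6 and 58.9 CPM in A.10 replicates 1 to 4 and 106.3, 116.1, 134.8 and 90.2 CPM in ME034V replicates 1 to 4. Every ME034V library was above every A.10 library, a 2.13-fold difference in the fit (log2 fold change 1.09, SE 0.12, edgeR adjusted p = 3.7e-05). The call held without each library in turn (adjusted p up to 0.00049), and was lost in the joint fit of all 32 libraries, which shares the spread of the other stages (log2 fold change 1.10, edgeR adjusted p = 0.10).

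*SvSWEET6*, a second clade II gene, stood at 17.0 to 31.7 CPM in A.10 and at 31.4 to 57.4 CPM in ME034V, so that the ecotypes overlapped by a single pair of libraries. Its log2 fold change of 0.81 (SE 0.25) missed the threshold in the 8 libraries (edgeR adjusted p = 0.056) and passed with DESeq2 (adjusted p = 0.0029) and in the joint fit (edgeR adjusted p = 0.025). It also passed without A.10 replicate 2 (edgeR adjusted p = 0.034), ME034V replicate 3 (0.030) or ME034V replicate 4 (0.038). The clade II pair *SvSWEET4a* and *SvSWEET4c*, the homologues of a maize SWEET needed for grain filling, had log2 fold changes of -0.25 (edgeR adjusted p = 0.22, SE 0.13) and 0.037 (SE 0.12, edgeR adjusted p = 0.89). *SvSWEET4c* lay at 105.4, 122.1, 125.1 and 120.4 CPM in A.10 and at 106.1, 128.5, 152.1 and 99.6 CPM in ME034V, so the groups overlapped throughout. *SvSWEET4a* passed only without ME034V replicate 1 (log2 fold change -0.37, edgeR adjusted p = 0.029). The paper describes the coding sequences of its SvSWEET4 isoforms, of which SvSWEET4b is not on the list, as highly similar. Reads shared between these isoforms would have been dropped by the authors' mapping, and how far this lowers the levels given here was not tested.

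Clade III SWEETs, whose members mostly export sucrose, held the most abundant SWEET of these heads, *SvSWEET15*. Its level ran from 201.0 to 426.6 CPM in A.10 and from 252.4 to 360.9 CPM in ME034V, with a log2 fold change of 0.096 (edgeR adjusted p = 0.86, SE 0.24). *SvSWEET13a* and *SvSWEET13b*, which lie near each other on chromosome 3, were at 73.0 to 93.8 and 60.1 to 97.1 CPM in A.10 and at 53.4 to 89.2 and 48.4 to 90.9 CPM in ME034V. Both overlapped between ecotypes, with log2 fold changes of -0.32 (SE 0.14) and -0.22 (SE 0.21), and *SvSWEET13a* passed only without ME034V replicate 1 (-0.48, edgeR adjusted p = 0.0029). *SvSWEET11b* lay at 22.6 to 28.1 CPM in A.10 and 27.4 to 33.6 CPM in ME034V (log2 fold change 0.31, SE 0.10, edgeR adjusted p = 0.056), passing without A.10 replicate 2 (0.027) or ME034V replicate 1 (0.025). *SvSWEET11a* overlapped fully, at 12.1 to 15.5 and 10.4 to 22.7 CPM.

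*SvSWEET14a* (*Sevir.8G137700*, chromosome 8 from 24588148 to 24590611), the remaining clade III gene with counts, was close to the floor of detection. It had 8 counts in the 4 A.10 libraries together, at 0.216, 0, 0.526 and 0.309 CPM, and 61 counts in ME034V, at 1.46, 0.766, 1.25 and 1.63 CPM. The groups did not overlap, and the log2 fold change was 2.11 (SE 0.51, edgeR adjusted p = 0.012). The locus passed the filter on low counts only through ME034V replicates 1, 3 and 4, the libraries where it was above 1 CPM. Its entry to the test thus depended on the ecotype where it was high, and the call carries little weight. It fell below the filter, and was not tested, in 3 of the 8 fits that left out a library.

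The clade I gene *SvSWEET2b* (*Sevir.5G287700*), whose Arabidopsis relative SWEET2 sits in the vacuolar membrane, was lower in ME034V. Its level was 53.7, 52.8, 61.6 and 69.1 CPM in A.10 and 35.6, 42.5, 44.7 and 51.2 CPM in ME034V, without overlap but with a gap of under 2 CPM between the nearest libraries. The log2 fold change was -0.44 (SE 0.12, edgeR adjusted p = 0.020). The call was lost without A.10 replicate 3 (edgeR adjusted p = 0.066), A.10 replicate 4 (0.086) or ME034V replicate 2 (0.054) and in the joint fit (0.11). The clade I gene *SvSWEET1a* was at 190.1 to 217.0 CPM in A.10 and 123.8 to 193.4 CPM in ME034V (log2 fold change -0.29, SE 0.12, edgeR adjusted p = 0.13), and *SvSWEET1b*, *SvSWEET2a* and *SvSWEET3a* had log2 fold changes of 0.091, -0.13 and -0.44 at under 22 CPM in every library. *SvSWEET16*, the only clade IV member, was at 25.1 to 32.9 CPM in A.10 and 23.6 to 31.5 CPM in ME034V (log2 fold change -0.025, SE 0.12, edgeR adjusted p = 0.93).

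Levels of different genes were compared per kb of locus, introns included. On that scale *SvSWEET15* ranked first of the 17 SWEETs in each of the 8 libraries, with means of 99.8 CPM per kb in A.10 and 107 in ME034V. *SvSWEET1a* ranked second in each A.10 library, with a mean of 53.3 CPM per kb. In each ME034V library the second place was held by *SvSWEET5*, with a mean of 70.9 CPM per kb beside 33.1 in A.10, where it held rank 3 in 3 libraries and rank 6 in replicate 3. That place depends on the length taken for the locus, 1577 bp for *SvSWEET5*, 3852 bp for *SvSWEET1a* and 4661 bp for *SvSWEET4c*. By CPM alone the ME034V mean of *SvSWEET5* (111.8) lay below those of *SvSWEET1a* (167.1) and *SvSWEET4c* (121.6). The genes ranked 3 to 8 in A.10 lay between 25.4 and 33.2 CPM per kb and changed places from library to library.

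**Figure D3:**
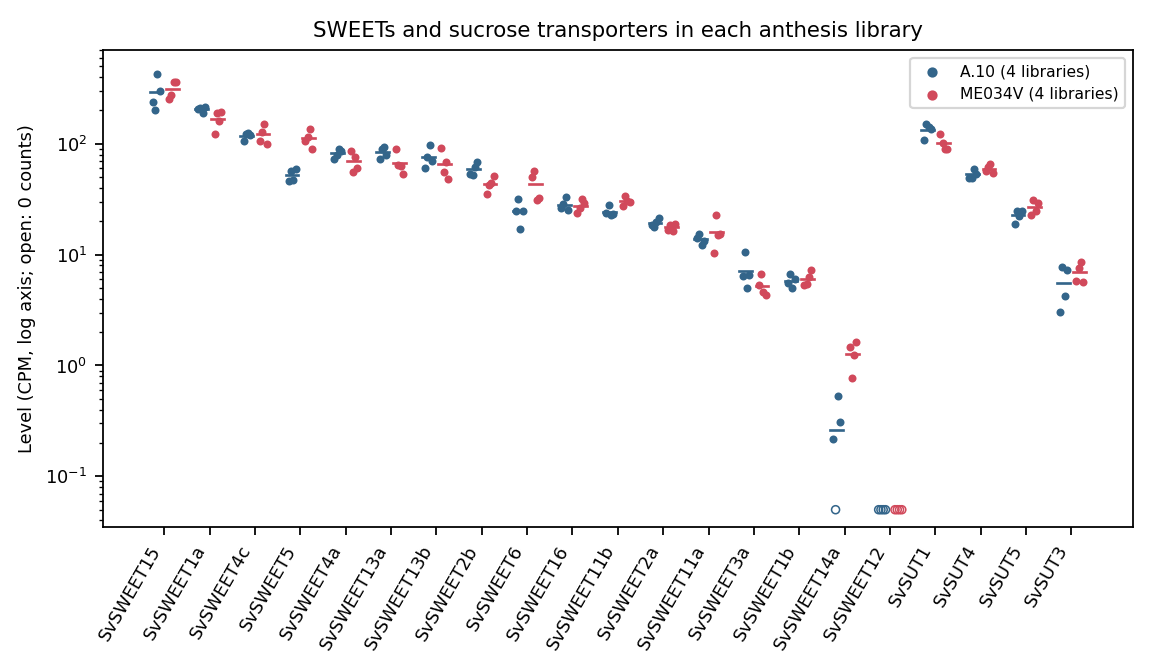
Level of each SWEET and sucrose transporter in CPM on a log axis, 1 point a library, with a line at the mean of the 4 libraries of an ecotype; open points at the bottom are libraries with 0 counts. *SvSWEET5*, *SvSWEET14a* and *SvSWEET2b* are the genes whose A.10 and ME034V points do not overlap.

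Of the 4 SUTs, which load sucrose into cells against its gradient, *SvSUT1* was called lower in ME034V, 25.0% beside 16.2% of all loci. *SvSUT1* (*Sevir.9G528600*, chromosome 9 from 52739469 to 52745432), the relative of the cereal SUT1 that takes up sucrose in filling grain, stood at 108.4, 150.6, 143.1 and 135.6 CPM in A.10 and at 123.0, 102.2, 89.5 and 89.7 CPM in ME034V. A.10 replicate 1 lay below ME034V replicate 1, so the groups overlapped. The log2 fold change was -0.42 (SE 0.12, edgeR adjusted p = 0.032), and of the fits that left out a library the call held only in those without replicate 1 of either ecotype. Without A.10 replicate 2, 3 or 4 the adjusted p was 0.12, 0.11 or 0.093, and without ME034V replicate 2, 3 or 4 it was 0.070, 0.10 or 0.081. The call was also lost with the stricter filter (0.054) and with the replicate number as a block (0.075). *SvSUT4* and *SvSUT5* lay at 49.0 to 59.5 and 19.0 to 25.0 CPM in A.10 and at 55.1 to 65.2 and 22.7 to 31.4 CPM in ME034V. Their log2 fold changes were 0.17 (SE 0.090) and 0.24 (SE 0.13), and that of *SvSUT3*, at under 9 CPM throughout, was 0.29 (SE 0.27). None of these 3 passed.

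Of the 15 HXTs tested, proton-coupled importers of glucose and fructose, 2 were higher and 1 lower in ME034V, 20.0% beside 16.2% of all loci. *Sevir.2G379900*, on chromosome 2 from 43076260 to 43078997, was at 5.17, 3.25, 3.68 and 4.33 CPM in A.10 and at 8.58, 12.1, 12.6 and 10.7 CPM in ME034V. All ME034V libraries were higher (log2 fold change 1.42, SE 0.19, edgeR adjusted p = 1.1e-04). It is the middle of 3 HXT loci with no annotated locus between them, and reads that fit more than 1 of them would have been dropped by the authors' mapping. *Sevir.9G398400*, on chromosome 9 from 43320183 to 43325441, moved the other way, from 16.6, 18.9, 12.2 and 13.4 CPM in A.10 to 5.66, 5.49, 3.76 and 5.89 CPM in ME034V. The groups did not overlap (log2 fold change -1.52, SE 0.19, edgeR adjusted p = 5.7e-05). The third called HXT, *Sevir.2G204200*, was at 17.2 to 22.0 CPM in A.10 and 25.2 to 29.2 CPM in ME034V (log2 fold change 0.47, SE 0.11, edgeR adjusted p = 0.0079) and was named after its values were seen. The most abundant HXT, *Sevir.1G121800*, was at 108.5 to 120.0 CPM in A.10 and 90.1 to 109.9 CPM in ME034V, with a log2 fold change of -0.18 (edgeR adjusted p = 0.18, SE 0.083).

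Of the 26 aquaporins tested, 8 were lower in ME034V and 1 was higher, 34.6% called beside 16.2% of all loci. Their median log2 fold change was -0.13. *SvTIP4;3* (*Sevir.5G007100*, chromosome 5 from 541669 to 545251), a channel of the vacuolar membrane, had the largest difference of the 26. It stood at 29.3, 28.5, 37.1 and 29.7 CPM in A.10 and at 5.02, 8.29, 8.01 and 9.33 CPM in ME034V, a 3.96-fold lower level in ME034V in the fit (log2 fold change -1.98, SE 0.16, edgeR adjusted p = 1.3e-06). Its neighbour 3372 bp away, *SvTIP4;1* (named for its place, after its values were seen), did not pass, at 74.4 to 100.2 CPM in A.10 and 55.3 to 103.3 CPM in ME034V (log2 fold change -0.049, SE 0.18). The next gene of that row, *SvTIP4;4*, also named after its values were seen, was lower in ME034V by a smaller amount, with an overlap (log2 fold change -0.46, SE 0.13, edgeR adjusted p = 0.023). That call was lost without A.10 replicate 1, 3 or 4 or ME034V replicate 2 (adjusted p from 0.052 to 0.095), in the joint fit (0.28) and with libraries thinned to equal depth (0.064).

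Of the 6 NIPs, which carry small solutes such as silicic and boric acid as well as water, 4 were lower in ME034V and 1 was higher, 83.3% called beside 16.2% of all loci. These 6 genes were set apart as a subfamily in the list, but all except *SvNIP4;1* are named here after their values were seen. *SvNIP1;1* (*Sevir.1G025500*) had the highest level of the subfamily, at 425.1, 368.3, 374.1 and 408.2 CPM in A.10 and 281.5, 315.2, 312.3 and 270.5 CPM in ME034V. The groups did not overlap (log2 fold change -0.42, SE 0.081, edgeR adjusted p = 0.0025). *SvNIP2;2*, named like a rice channel for silicic acid, was at 107.5 to 163.5 CPM in A.10 and at 84.0 to 88.2 CPM in ME034V (log2 fold change -0.66, SE 0.10, edgeR adjusted p = 5.3e-04). *SvNIP3;1*, named like a rice channel for boric acid, was at 107.9 to 180.9 CPM in A.10 and at 73.5 to 92.2 CPM in ME034V (log2 fold change -0.68, SE 0.14, edgeR adjusted p = 0.0059). For both, every A.10 library lay above every ME034V library. *SvNIP2;1* overlapped (24.6 to 40.2 and 18.4 to 26.3 CPM), and its call (log2 fold change -0.55, edgeR adjusted p = 0.035) was lost without A.10 replicate 3 or 4 or ME034V replicate 1, 2 or 4 (adjusted p from 0.055 to 0.13), in the joint fit (0.26), with the stricter filter (0.050) and with thinned libraries (0.053).

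*SvNIP4;1* (*Sevir.5G074800*) was the aquaporin with the opposite direction. It lay at 10.99, 11.8, 3.95 and 13.3 CPM in A.10 and at 24.0, 31.1, 20.9 and 19.8 CPM in ME034V, without overlap (log2 fold change 1.26, SE 0.31, edgeR adjusted p = 0.021). A.10 replicate 3 was well below its replicates, and the call was lost without ME034V replicate 1 (edgeR adjusted p = 0.071) and without a filter (0.062). Among the PIPs, the main water channels of the plasma membrane, 2 of 8 were lower and 0 higher, 25.0% called beside 16.2% of all loci. The 2 were *SvPIP2;7* (log2 fold change -0.43, SE 0.098, edgeR adjusted p = 0.0078) and *SvPIP1;5* (-0.54, SE 0.15, edgeR adjusted p = 0.023), both named after their values were seen. The call of *SvPIP2;7* was lost in the joint fit (edgeR adjusted p = 0.17), and that of *SvPIP1;5* was lost without A.10 replicate 1, 2 or 3 or ME034V replicate 3 (adjusted p from 0.053 to 0.081). The most abundant aquaporin, *SvPIP1;2*, held 1333, 1298, 1335 and 1329 CPM in A.10 and 1251, 1327, 1263 and 1198 CPM in ME034V (log2 fold change -0.071, SE 0.073, edgeR adjusted p = 0.59). *SvTIP3;1* and *SvTIP3;3*, vacuolar channels typical of maturing seed and likewise outside the rule, were below the filter, with at most 2.11 and 1.05 CPM in any library.

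Among genes that split sucrose, 1 invertase was higher in ME034V and 2 were lower. Called were 28.6% of the 7 cell wall, 12.5% of the 8 neutral and 0 of the 2 vacuolar invertases tested, beside 16.2% of all loci. Of the 7 cell wall invertases tested, which cleave sucrose outside the cell, *Sevir.7G099400* was higher in ME034V, at 14.1, 26.4, 8.64 and 17.7 CPM beside 6.46, 10.6, 5.79 and 6.91 CPM in A.10. ME034V replicate 3 lay within the A.10 range (log2 fold change 1.196, SE 0.33, edgeR adjusted p = 0.032), and the call was lost without A.10 replicate 1, 3 or 4 or ME034V replicate 1 or 4 (adjusted p from 0.069 to 0.096) and without a filter (0.076). *Sevir.3G029200*, named after its values were seen, was lower (log2 fold change -0.80, SE 0.21, edgeR adjusted p = 0.020), a call lost without A.10 replicate 2 (0.052) or 3 (0.077) and with thinned libraries (0.073). The cell wall invertase with the highest level, *Sevir.7G099200*, had a log2 fold change of 0.12 (SE 0.14). The main vacuolar invertase of the list, *Sevir.1G004700*, stood at 227.3, 227.0, 269.5 and 226.1 CPM in A.10 and at 241.3, 207.0, 186.4 and 116.0 CPM in ME034V, an overlap (log2 fold change -0.35, SE 0.19, edgeR adjusted p = 0.29). The paper lists it as a vacuolar invertase but proposes, from protein modelling by homology, that it probably encodes a fructosyltransferase of fructan synthesis. Of the 8 neutral invertases, *Sevir.7G096700*, also outside the rule, was lower in ME034V (-0.81, SE 0.20, edgeR adjusted p = 0.012), while the most abundant, *Sevir.1G193400*, had a log2 fold change of -0.23 (edgeR adjusted p = 0.15, SE 0.099). None of the 4 sucrose synthases passed, and their most abundant member, *Sevir.9G377500*, lay at 1515 to 1799 CPM in A.10 and 1245 to 1776 CPM in ME034V.

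In the synthesis of sucrose, 1 of 3 sucrose phosphatases was higher and 1 of 5 sucrose phosphate synthases lower in ME034V, 33.3% and 20.0% beside 16.2% of all loci. The phosphatase *Sevir.2G396500*, which removes the phosphate in the last step, was at 43.1, 45.9, 54.1 and 46.2 CPM in A.10 and at 62.9, 64.2, 56.6 and 63.7 CPM in ME034V. The groups did not overlap (log2 fold change 0.38, SE 0.088, edgeR adjusted p = 0.0082). The synthase *Sevir.4G210700*, named after its values were seen, was at 61.3 to 64.2 CPM in A.10 and 43.4 to 48.8 CPM in ME034V (log2 fold change -0.40, SE 0.074, edgeR adjusted p = 0.0017), and the most abundant synthase, *Sevir.5G435000*, had a log2 fold change of -0.015 (SE 0.098), with a sign that changed with the scaling.

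Of 6 genes for UDP-glucose pyrophosphorylase, the enzyme that makes UDP-glucose from glucose 1-phosphate, 2 were higher in ME034V, 33.3% beside 16.2% of all loci. *Sevir.7G323500*, on chromosome 7 from 34260535 to 34266847, held 2.16, 1.83, 2.76 and 2.58 CPM in A.10 and 66.8, 64.3, 63.3 and 83.3 CPM in ME034V. All ME034V libraries were above all A.10 libraries, 28.9-fold in the fit (log2 fold change 4.85, SE 0.15, edgeR adjusted p = 6.9e-11). A second member, *Sevir.4G254800*, was higher by a smaller amount, 71.5 to 87.0 CPM in A.10 and 111.6 to 136.2 CPM in ME034V (log2 fold change 0.70, SE 0.085, edgeR adjusted p = 5.3e-05), and was named after its values were seen. The member with the highest level, *Sevir.2G312500*, did not pass, at 444.7 to 569.5 CPM in A.10 and 381.2 to 553.9 CPM in ME034V (log2 fold change -0.16, SE 0.11). The other 3 genes did not pass either.

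Of the starch synthesis genes, 2 were higher in ME034V and 1 was lower at this stage, before grain filling. Called were 0 of the starch synthases, 33.3% of the ADP-glucose pyrophosphorylase genes and 25.0% of the branching enzymes, beside 16.2% of all loci. None of the 11 starch synthases passed, with log2 fold changes from -1.15 to 0.073, and the most abundant, *Sevir.6G034800*, had one of -0.028 (SE 0.082). Of 6 ADP-glucose pyrophosphorylase genes, which make the glucosyl donor for starch, *Sevir.2G097700* was higher (0.62, SE 0.17, edgeR adjusted p = 0.026) and *Sevir.2G172800* lower (-0.33, SE 0.083, edgeR adjusted p = 0.015) in ME034V, both named after their values were seen. The first call was lost without A.10 replicate 1, 3 or 4 or ME034V replicate 1 or 2 (adjusted p from 0.051 to 0.081) or with a replicate block (0.052), the second without A.10 replicate 1 (0.053). The most abundant member, *Sevir.3G134900*, had a log2 fold change of -0.17 (SE 0.084). Of 4 starch branching enzymes, *Sevir.4G159200* was higher (0.42, edgeR adjusted p = 0.023, SE 0.12), a call lost without A.10 replicate 2 or 3 or ME034V replicate 3 (adjusted p from 0.061 to 0.078) and in the joint fit (0.091). It was named after its values were seen. The most abundant branching enzyme, *Sevir.7G096400*, was at 244.9 to 286.1 CPM in A.10 and 218.6 to 263.5 CPM in ME034V.

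Among genes that release sugars from starch and glucosides, the extremes were again single members. The glucosidase *Sevir.3G289100*, on chromosome 3 from 25118436 to 25121388, was at 1.29, 0, 0.526 and 0.206 CPM in A.10 and at 21.0, 30.0, 20.7 and 23.3 CPM in ME034V, a log2 fold change of 5.67 (edgeR adjusted p = 3.1e-07, SE 0.37). *Sevir.4G181700* was lower in ME034V, at 14.9, 14.2, 17.0 and 13.3 CPM in A.10 and 6.15, 5.62, 7.14 and 8.79 CPM in ME034V (-1.06, SE 0.16, edgeR adjusted p = 4.0e-04). Neither gene overlapped between ecotypes. In A.10 *Sevir.3G289100* was above 1 CPM in replicate 1 only, with 12 counts in the A.10 libraries together. It therefore passed the filter on low counts only through ME034V, the ecotype where it was high, and its call and lack of overlap carry that limit. The most abundant glucosidase, *Sevir.2G265100*, was also lower, at 798.5, 810.1, 1026 and 917.8 CPM in A.10 and 394.7, 556.0, 514.1 and 473.9 CPM in ME034V. Its groups were far apart in these 8 libraries (-0.87, SE 0.11, edgeR adjusted p = 9.8e-05), and the call was lost in the joint fit (-0.87, edgeR adjusted p = 0.12). In all, 3 of 34 glucosidases, counting *Sevir.3G289100*, were higher and 4 lower, 20.6% beside 16.2% of all loci. The remaining 4, named after their values were seen, differed by less than 1 on the log2 scale. *Sevir.7G143100* was higher (0.58, SE 0.14, edgeR adjusted p = 0.010) and kept its call without each library in turn. The calls of *Sevir.2G294700* (0.62, edgeR adjusted p = 0.044), *Sevir.2G281200* (-0.39, 0.013) and *Sevir.7G173500* (-0.49, 0.029) were each lost without single libraries, to 0.13, 0.065 and 0.12 at most, that of *Sevir.2G281200* also in the joint fit (0.31), and that of *Sevir.2G294700* also with the stricter filter (0.052) and thinned libraries (0.099).

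Of 9 beta-amylases, which release maltose from starch, 2 were lower, 22.2% beside 16.2% of all loci. *Sevir.7G078800* was at 3.02, 5.08, 3.16 and 1.34 CPM in A.10 and at 0.162, 0.638, 0.751 and 0.544 CPM in ME034V, low throughout but without overlap (log2 fold change -2.44, SE 0.45, edgeR adjusted p = 0.0018). Every ME034V library was under 1 CPM, so this gene passed the filter on low counts only through A.10, the ecotype where it was high. Its call, its lack of overlap and its part in the 22.2% carry that limit. The other, *Sevir.2G353100*, named after its values were seen, had a log2 fold change of -0.40 (edgeR adjusted p = 0.033), a call lost without A.10 replicate 1, 3 or 4 or ME034V replicate 2 or 3 (adjusted p from 0.065 to 0.15), in the joint fit (0.088) and with thinned libraries (0.083). The most abundant beta-amylase, *Sevir.9G229200*, was at 88.0 to 107.7 CPM in A.10 and 111.3 to 190.0 CPM in ME034V. Its log2 fold change of 0.51 (SE 0.16) missed the threshold (edgeR adjusted p = 0.054) and passed with DESeq2 (adjusted p = 0.012) and without ME034V replicate 4 (edgeR adjusted p = 0.032). None of the 5 alpha-amylases tested passed, and *Sevir.5G298000*, their most abundant member, had a log2 fold change of 0.057 (SE 0.15).

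The 2 genes that the study used as references in quantitative PCR did not pass at anthesis. The elongation factor 1-alpha gene *Sevir.3G271600* was at 121.5 to 129.1 CPM in A.10 and at 90.3, 120.2, 118.3 and 118.4 CPM in ME034V, all 4 below the lowest A.10 library (log2 fold change -0.15, SE 0.090, edgeR adjusted p = 0.33). The translation factor gene *Sevir.5G315700* was at 69.7 to 79.1 CPM in A.10 and spread from 25.7 to 73.4 CPM in ME034V, with replicates 1 to 4 at 25.7, 44.7, 49.7 and 73.4 CPM. Its log2 fold change was -0.57 (SE 0.27, edgeR adjusted p = 0.22), and -0.85 (edgeR adjusted p = 0.013) without ME034V replicate 4. The joint fit called *Sevir.5G315700* lower in ME034V at emergence (-0.93, edgeR adjusted p = 0.00084), 8 DAA (-1.17, 4.5e-05) and 16 DAA (-0.71, 0.0065). It called *Sevir.3G271600* lower at 8 DAA (-0.32, edgeR adjusted p = 0.0018) and 16 DAA (-0.42, 6.8e-05) but not at emergence (0.11).

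Whether a difference was particular to anthesis was asked by testing the ecotype difference at anthesis against the mean ecotype difference at emergence, 8 DAA and 16 DAA in a joint fit of all 32 libraries. Of 25264 loci tested, 520 passed, 2.06%, with 148 shifted toward ME034V at anthesis (0.586%) and 372 toward A.10 (1.47%). Of the 520, 244 were also called between the ecotypes in the 8 anthesis libraries. These counts rested in part on single libraries. Without ME034V replicate 4 they were 77 and 163, and without A.10 replicate 4 they were 68 and 162. Without A.10 replicate 1, 2 or 3 those toward ME034V were 87, 89 or 92, and without A.10 replicate 3 or ME034V replicate 3 those toward A.10 were 240 or 229.

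Of the list, 9 of 177 genes passed this test beside 2.06% of all loci, 2 toward ME034V and 7 toward A.10, of which only *SvSWEET14a* and *Sevir.1G004700* are named by the rule and the rest after their values were seen. Without A.10 replicate 1, 3 or 4 there were 4, 5 or 2 such genes, and without ME034V replicate 1 or 4 there were 5 or 3. *SvSWEET14a* had an ecotype difference of 0.95 on the log2 scale at emergence (SE 0.76), 2.12 at anthesis (SE 0.43), -0.84 at 8 DAA (SE 0.19) and -0.86 at 16 DAA (SE 0.19), so that the sign at anthesis was opposite to that after it. Anthesis differed from the mean of the other stages by 2.38 (edgeR adjusted p = 0.023, SE 0.57), which no longer passed without A.10 replicate 4 (0.057) or ME034V replicate 4 (0.079). The vacuolar invertase *Sevir.1G004700* had ecotype differences of -0.035, -0.34, 1.09 and 2.96 at the 4 stages in order, and anthesis differed by -1.68 (edgeR adjusted p = 0.036, a call lost without each library in turn, at 0.050 to 0.10, except ME034V replicate 1).

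Among the aquaporins, *SvNIP1;1* (-0.61, edgeR adjusted p = 0.025), *SvPIP2;1* (-0.71, 0.010), *SvTIP2;4* (-1.25, 0.035) and *SvNIP3;1* (-0.70, 0.033) were each shifted toward A.10 at anthesis relative to the mean of the other stages. At emergence, anthesis, 8 DAA and 16 DAA, *SvNIP1;1* had differences of -0.24, -0.41, 0.27 and 0.57, and *SvTIP2;4* of 0.46, 0.039, 1.29 and 2.11. For *SvNIP3;1* they were -0.65, -0.67, 0.20 and 0.53, so anthesis lay close to emergence and apart from the later stages. *SvPIP2;1* had ecotype differences of -0.14, -0.11, 0.79 and 1.14 at the 4 stages, close to 0 up to anthesis and above it after, and kept its call without each library in turn. *SvNIP1;1* lost it without A.10 replicate 1 or 4 or ME034V replicate 1 or 4 (adjusted p from 0.056 to 0.074), *SvTIP2;4* without A.10 replicate 1, 2 or 4 or ME034V replicate 1, 3 or 4 (from 0.050 to 0.097), and *SvNIP3;1* without A.10 replicate 3 or 4 or ME034V replicate 3 or 4 (from 0.052 to 0.12). The glucosidase *Sevir.9G090200* was above A.10 in ME034V by 3.33, 0.74, 3.49 and 4.08 on the log2 scale at the 4 stages, least at anthesis, where it did not pass in the 8 libraries (edgeR adjusted p = 0.12), though it passed with DESeq2 (adjusted p = 0.010), with a replicate block (edgeR adjusted p = 0.00053) and without ME034V replicate 3 (0.043). Its shift at anthesis (-2.90, edgeR adjusted p = 0.0084) kept the call without each library in turn. The neutral invertase *Sevir.7G108800* (-1.07, 0.028) lost it without A.10 replicate 1, 3 or 4 or ME034V replicate 1 or 4, and the ADP-glucose pyrophosphorylase gene *Sevir.2G097700* (0.74, 0.025) without A.10 replicate 1, 3 or 4 or ME034V replicate 1.

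Several of the large differences at anthesis had the same sign at every stage. For them the test against the other stages did not pass, which does not show that the difference was steady. The UDP-glucose pyrophosphorylase *Sevir.7G323500* had log2 fold changes of 5.16, 4.86, 5.64 and 4.64 at emergence, anthesis, 8 DAA and 16 DAA, and the HXT *Sevir.9G398400* of -1.49, -1.52, -1.49 and -1.84. Each of these 8 differences was called in the joint fit. For *SvTIP4;3* the difference was -1.32, -1.98, -2.69 and -4.13. *SvSWEET5* had values of 1.54, 1.10, 2.75 and 3.46, of which those at 8 and 16 DAA were called (edgeR adjusted p = 6.2e-05 and 1.1e-05) and those at emergence and anthesis were not (0.16 and 0.10). Anthesis and the other stages differed by -1.48 for *SvSWEET5* (SE 0.54, edgeR adjusted p = 0.18), -0.29 for *Sevir.7G323500* (SE 0.28, 0.73) and 0.73 for *SvTIP4;3* (SE 0.25, 0.13).

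**Figure D4:**
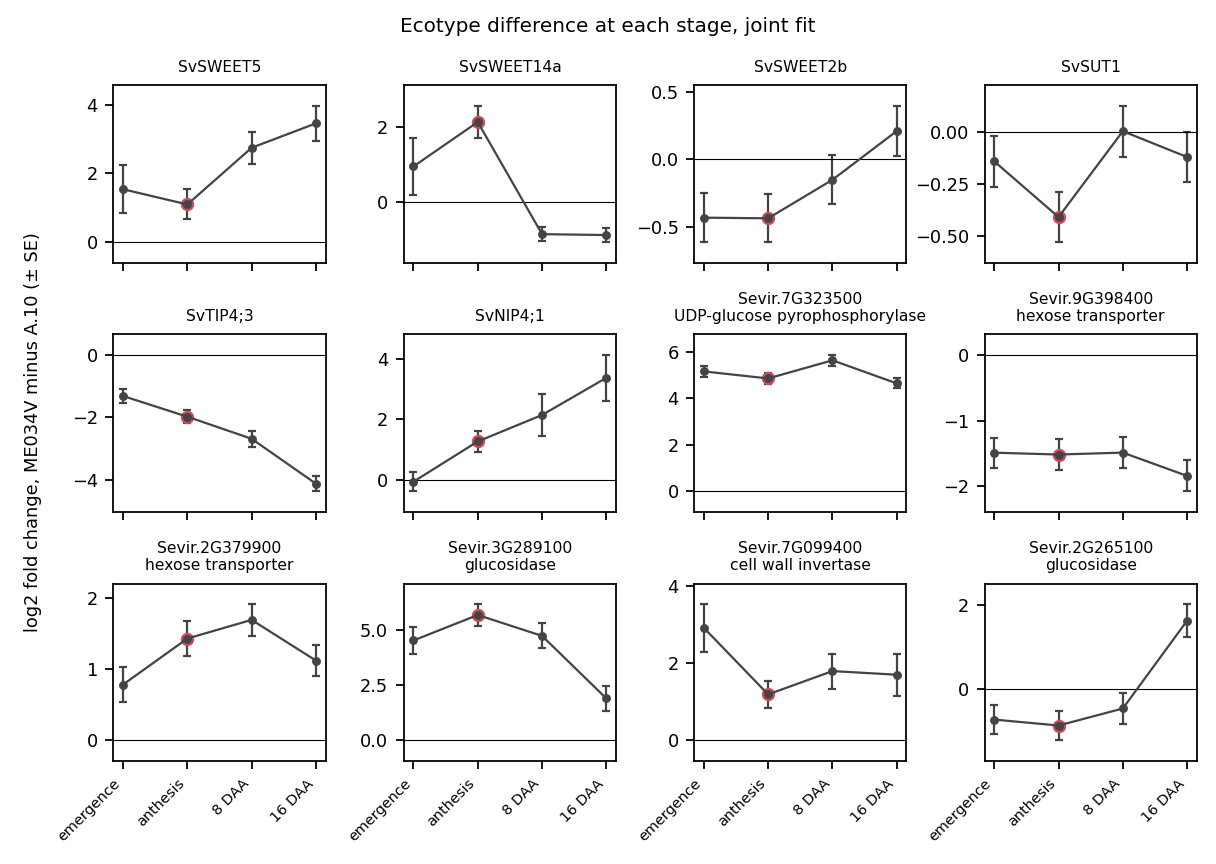
Ecotype difference (log2 fold change, ME034V minus A.10, ± SE) at the 4 stages for 12 genes, from the joint fit of 32 libraries; the red ring marks anthesis and the vertical scales differ. *SvSWEET14a* is higher in ME034V at anthesis and lower after it, while *Sevir.7G323500* stays between 4.64 and 5.64 at every stage.

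Some loci were detected in one ecotype and nearly absent from the other. With at most 3 counts in the 4 libraries of one ecotype and at least 10 CPM in every library of the other, 37 loci were nearly absent in ME034V, 9 of them with 0 counts, and 13 were nearly absent in A.10, 6 of them with 0 counts. None of these 50 is on the sugar and water list. At the other 3 stages too, 29 of the 37 had at most 3 counts in the ME034V libraries of each stage, and 8 of the 13 had at most 3 in those of A.10. The reads were mapped to an A.10 genome, so a locus whose sequence differs in ME034V and a locus that is not expressed there cannot be told apart from these counts.

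Over the 37 loci the level was at least 169-fold to at least 1050-fold lower in ME034V, and over the 13 at least 108-fold to at least 665-fold higher. The loci outside the list that the naming rule took, by the fitted change, were of this kind, and other loci had higher bounds. *Sevir.5G006650*, on chromosome 5 from 513883 to 515838, had 0 counts in A.10 and 72.0, 71.0, 69.97 and 69.8 CPM in ME034V, at least 665-fold higher against a floor of 3 counts over the 4 A.10 libraries. It lies 25830 bp from *SvTIP4;3*, which was lower in ME034V. *Sevir.3G308300* had 0 counts in A.10 and 22.0 to 29.0 CPM in ME034V, at least 226-fold higher. In the other direction *Sevir.8G169500* was at 33.9 to 43.3 CPM and *Sevir.5G050300* at 31.2 to 43.1 CPM in A.10, both with 0 counts in ME034V, at least 528-fold and 503-fold lower there. The annotation used here names none of these 4 loci. *SvNIP1;1* lies beside a locus of the same kind, *Sevir.1G025233*. There 6 tested loci in a row by identifier, from *Sevir.1G025100* to *Sevir.1G026000*, were all lower in ME034V. The first 3 of them had a mean of 1.43, 15.3 and 4.50 CPM in A.10 and 0 CPM in ME034V.

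Called loci were unevenly spread over the chromosomes, and chromosome 8 stood apart in both directions. On it 31.5% of 1288 loci tested were called, 15.1% higher and 16.5% lower in ME034V, beside 15.2% of the 21534 loci on the other 8 chromosomes, which ranged from 12.9% (chromosome 1) to 18.7% (chromosome 4). A smaller share of its annotated loci was expressed well enough to be tested, 43.2% beside 55.1% to 64.8% on the others. The share called on chromosome 8 stayed above that of the others together in each alternative fit. It was 29.8% beside 14.7% without ME034V replicate 4, 20.4% beside 11.5% without a filter and 15.1% beside 3.59% where edgeR tested against an absolute change of 1 on the log2 scale. At each stage the share was high: in the joint fit 29.2%, 28.7%, 35.6% and 41.8% of the loci of chromosome 8 were called at emergence, anthesis, 8 DAA and 16 DAA, each the highest share of the 9 chromosomes. Of the 3 genes of the list tested on chromosome 8, *SvSWEET14a* was called, a locus that passed the filter only through ME034V libraries.

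**Figure D5:**
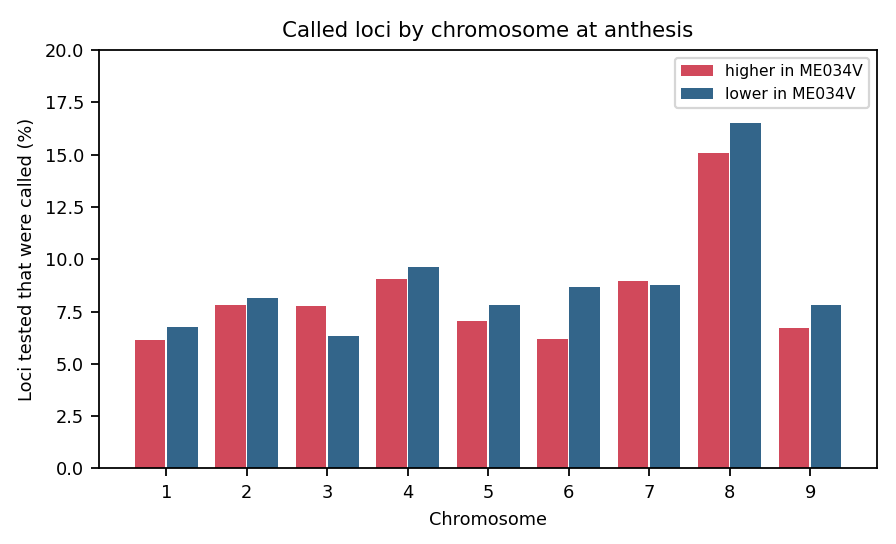
Share of tested loci called higher (red) or lower (blue) in ME034V at anthesis for each of the 9 chromosomes, in percent. Chromosome 8 holds 15.1% higher and 16.5% lower loci, and no other bar exceeds 9.63%.

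In windows of 1000000 bp with at least 20 tested loci, a median of 15.2% of loci were called over 329 windows. The share reached 40% in 12 windows, 6 of them among the 28 on chromosome 8. The highest were chromosome 8 from 39000001 to 40000000, with 13 loci higher and 13 lower of 41, and from 34000001 to 35000000, with 19 higher and 14 lower of 54. Both directions were mixed in these 2 windows, while others held 1 direction, such as chromosome 4 from 11000001 to 12000000 with 0 higher and 11 lower of 28 loci. The window on chromosome 3 from 38000001 to 39000000, which holds *SvSWEET13a* and *SvSWEET13b*, had 5 higher and 4 lower of 22 loci, while neither SWEET passed. Runs of tested loci called in the same direction were taken along the order of locus identifiers, which departs from position in places. The longest had 8 loci, all higher in ME034V, from *Sevir.8G259101* to *Sevir.8G260000* on chromosome 8. The longest runs lower in ME034V had 7, on chromosomes 1 and 6. By position, the run on chromosome 6 (23248646 to 24926267) encloses loci called higher, from *Sevir.6G098600* to *Sevir.6G099000*, and is not unbroken.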

How the data were processed

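The authors extracted RNA from frozen seed heads, made poly(A)-enriched TruSeq libraries, removed adapters (Trim Galore), aligned with Subjunc of Subread 1.6.2, kept uniquely mapped reads and ran featureCounts (version 1.5.0-p1 in the headers) ignoring strand. Raw counts as deposited cover 38334 loci; the v2.1 gene models used for them are those of an A.10 genome. Without strand, reads of a gene and of its antisense partner cannot be told apart. Deposited log2 FPKM tables, scaled for each ecotype on its own, were not used.

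Here the 8 anthesis libraries were normalized together by TMM and tested with edgeR 4.0.16 (robust quasi-likelihood F test, 2 group means) in R 4.3.3 on the 22822 loci passing a minimum of CPM above 1 (3 or more libraries), with p-values adjusted by Benjamini-Hochberg. CPM are TMM-scaled. Standard errors are approximate, the absolute log2 fold change divided by the root of F. The joint fit took 8 group means of 32 libraries (25264 loci). Genes for the stage scale had an adjusted p under 0.05 and an absolute log2 fold change above 2 between emergence and 8 DAA in each ecotype, and a mean of at least 5 CPM, and scores were limited to -1 to 2 per gene. Replicates are separate pools of plants, and no 2 libraries held identical counts. Intervals of counting error and the floor of 3 counts cover counting only.

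Named genes are all SWEETs and SUTs, other genes of the list called with an absolute log2 fold change of at least 1, the most abundant member of each other family, the reference genes of the study and, of all other loci with at least 10 CPM and no overlap, the 2 largest changes each way. The members and lists were chosen with earlier results of these data known. Scripts were tested on simulated data. Alternatives were DESeq2 1.42.0, its size factors, upper-quartile scaling, no filter or CPM above 5 in at least 4 libraries, the joint fit, replicate number as a block, thinning to the shallowest library, edgeR's test against an absolute change of 1 (log2), and each library left out. Fits without a library, and other settings, were added for the counts by chromosome and near absence after the data were seen.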

Additional observations from a re-analysis of the deposited data

Results flagged for a closer look

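Outlying libraries were sought in the 4 libraries of each ecotype for 160 sets of values by Dixon's criterion, which flags about 1 in 20 by chance, and 11 were found. In ME034V, replicate 4 stood apart by its total count of 21175874. In ME034V, replicate 1 was low for the elongation factor gene *Sevir.3G271600* (90.3 CPM), replicate 2 was high for the sucrose phosphate synthase *Sevir.5G435000* (208.9 CPM) and the glucosidase *Sevir.2G294700* (20.3 CPM), replicate 3 was low for the sucrose phosphatase *Sevir.2G396500* (56.6 CPM), and replicate 4 was high for the beta-amylase *Sevir.2G353100* (20.6 CPM). In A.10, replicate 3 was high for *SvTIP4;3* (*Sevir.5G007100*, 37.1 CPM) and the vacuolar invertase *Sevir.1G004700* (269.5 CPM), replicate 1 was high for the glucosidase *Sevir.7G143100* (17.2 CPM), replicate 2 was low for *SvPIP1;2* (*Sevir.1G269400*, 1298 CPM), and replicate 1 was low on the stage scale of the falling genes (0.172).

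The ecotype difference at anthesis differed from the mean of the other stages, by the test of that difference in the joint edgeR fit, for 9 genes of the list. On the log2 scale it was shifted by 2.38 for *SvSWEET14a*, -1.68 for *Sevir.1G004700*, -0.61 for *SvNIP1;1*, 0.74 for *Sevir.2G097700*, -0.71 for *SvPIP2;1*, -1.25 for *SvTIP2;4*, -1.07 for *Sevir.7G108800*, -2.90 for *Sevir.9G090200* and -0.70 for *SvNIP3;1*.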

How the results depend on the processing

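Of 39 named loci called at anthesis, 21 stayed called in every alternative in which they were tested, apart from the test against a log2 fold change of 1, and 0 changed direction. Both counts include the loci outside the list, which were taken for large changes without overlap, and genes named because they were called. The share that stayed called is therefore not an independent measure of stability. The counts of higher and lower loci fell from 1783 and 1903 to 1152 and 1260 with the stricter filter, under which fewer loci were tested, and to 423 and 543 in the test against 1, where the list kept 2 and 3. Leaving out each library gave 1340 to 1966 higher and 1343 to 2147 lower loci, and 10 to 17 and 12 to 23 genes of the list. With a replicate block 1904 and 2098 loci, and 18 and 25 genes of the list, were called. Deviations of same-numbered libraries correlated at 0.0352, 0.145, 0.0751 and 0.323, and those of unlike numbers between -0.169 and 0.0745. A.10 replicates 2, 3 and 4 correlated best with their own number, and A.10 replicate 1 did not. The main fit took no pairs, and a shared effect of replicate number was not tested. In the block fit *SvSUT1* and *Sevir.2G097700* lost their calls (adjusted p = 0.075 and 0.052) and *SvSWEET6* (*Sevir.5G225300*), *SvSWEET11b* and *Sevir.9G090200* gained one (0.00066, 0.042 and 0.00053). The test against the other stages gave 143 and 382 with a block, and 68 to 133 toward ME034V and 162 to 351 toward A.10 with a library left out. Upper-quartile scaling raised the share of higher among called loci from 48.4% to 53.1%.

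Without a library, 26.5% to 33.2% of loci on chromosome 8 were called, and 20.4% without a filter and 15.1% in the test against 1. Nearly absent loci numbered 38 to 47 (ME034V) and 13 to 17 (A.10). The stage difference of rising genes turned to -0.00443 with A.10 axis genes, -0.0115 with axis genes above 1 and -0.0767 with own end points, and ran from -0.00825 to 0.0225 without a library. That of falling genes turned to 0.0253 with A.10 axis genes and 0.0171 with own end points, and ran from -0.0231 to -0.00813. With ME034V axis genes they were 0.0277 and -0.0357 (exact permutation p = 0.371 and 0.0857). Signs of small differences that did not pass also turned: *SvSWEET16* (*Sevir.9G414000*) to 0.00085 (upper-quartile scaling) and 0.012 (thinned), *Sevir.5G435000* to 0.012 (upper-quartile scaling). Without a library these 2 ran from -0.088 to 0.068 and from -0.13 to 0.029, *SvSWEET4c* from -0.087 to 0.13, *SvSWEET15* from -0.033 to 0.35, *SvSWEET1b* from -0.019 to 0.17, *SvTIP2;4* from -0.074 to 0.18, *Sevir.6G034800* from -0.065 to 0.041 and *Sevir.5G298000* from -0.052 to 0.17. The cause of these changes was not tested. At the shallowest depth, 4808433 counts, 1 CPM is about 5 counts, so loci near the filter carry the largest errors.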
